A study of Mus musculus with 3 samples.

Results

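The nuclear pore and nuclear transport genes of mouse were described by the nucleosome positions over them in fetal liver erythroblasts on culture days 0, 1 and 2. The rule for choosing them uses the symbol alone, from RefSeq's list of genes on GRCm38.p6, whose coordinates are those of mm10. The rule took protein-coding genes of chromosomes 1 to 19 named Nup, Kpna, Kpnb or Ipo with a number, together with Xpo1, Xpo4, Xpo5, Xpo6, Xpot, Tnpo1, Tnpo2, Tnpo3, Cse1l, Ran, Tpr and Ndc1. It found 46 of the 20556 autosomal protein-coding genes. Of these, 22 were pore genes and 24 were transport factors. The pore proteins now called Nup58 and Nup42 stood in the table under the older symbols Nupl1 and Nupl2 and were not matched by the rule.

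Erythroblasts are the nucleated precursors of red cells. The cells were Ter119-negative at the start, which means that they lacked a surface protein of later erythroid stages, and came from 6 fetuses. They were cultured in medium with erythropoietin, insulin and serum, and chromatin was taken from cells purified on each of the 3 days. The labels name neither a strain nor the age of the fetuses, give the same medium for all days, and do not say whether the days came from 1 culture. Chromatin was cut with micrococcal nuclease, an enzyme that digests the DNA between nucleosomes, and the DNA of single nucleosomes was sequenced. There was 1 library per day, so no test between days was possible, no difference has a replicate check, and differences between days cannot be told apart from differences between libraries. Nucleosome positions give no transcript levels, so the cell type was not checked against markers here.

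The nuclear pore complex is a ring-shaped channel through the nuclear envelope, built from many copies of the proteins called nucleoporins. Importins and exportins are receptors that carry cargo through it, and the small GTPase Ran, in its GTP form in the nucleus and its GDP form in the cytoplasm, gives the transport its direction. As a red cell matures the nucleus shrinks, its chromatin condenses, and it is finally expelled from the cell. In chromatin of active genes, a stretch just upstream of the transcription start site is usually poor in nucleosomes and is followed by an ordered row of nucleosomes downstream.

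The deposited lists held 3735952, 2999502 and 4474045 positions of 140 bp on days 0, 1 and 2. Their median summit values, which are the authors' smoothed and scaled coverage at a position's centre, were 7.62, 6.80 and 6.26 over the autosomes. The number of reads behind each list was not known. Between 97.4% and 98.7% of summit values lay within 0.01 of a step of a whole multiple of 1 constant, which was 0.762, 0.324 and 0.626 on days 0, 1 and 2, so the day 1 values have the finest grain. The spans of the 46 genes held 7336, 6661 and 7718 positions.

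The stretch just upstream of the start sites held few listed nucleosomes in these genes on every day. Start sites and strand came from RefSeq promoter entries, which matched 37 of the 46 genes, from Nup107 to Ran. Nup35, Nup43, Nup85, Nup210l, Kpna1, Kpna3, Kpna6, Cse1l and Xpo4 had no entry. In the 150 bp upstream of the start lay 5 of 257 centres within 1000 bp on day 0, 5 of 271 on day 1 and 7 of 306 on day 2. Weighted by summit value this was 1.81%, 1.74% and 2.45% of the signal, in a stretch that makes up 7.55% of the length. The same shares over all 16456 genes with an entry were 5.16%, 5.28% and 5.53%. By number of centres the genes' shares had exact Clopper-Pearson 95% intervals of 0.635% to 4.48%, 0.602% to 4.25% and 0.925% to 4.66%, which cover counting error only. All genes lay above these intervals at 5.34%, 5.44% and 5.78%.

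Downstream of the start sites the listed nucleosomes stood in a row. The smoothed density of centres reached a first maximum of 1.78, 3.22 and 1.68 times its level at 800 to 1000 bp on days 0, 1 and 2. These maxima lay 110, 130 and 120 bp downstream of the start, and over all genes they were 1.47, 2.14 and 1.59 times at 110, 110 and 90 bp. Further downstream the order was not the same on every day. At 330 bp the density was 2.06, 3.22 and 1.35 times, against 1.56, 2.16 and 1.66 over all genes, so lower on day 2. At 510 bp on day 2 it was 1.65 against 1.34. Upstream the density had a minimum of 0.243, 0.302 and 0.299 times, against 0.677, 0.825 and 0.742 times over all genes. The density of the 37 genes rests on 257, 271 and 306 centres, so its extremes are noisier than those of all genes. Its minima lay at different places, -30, -100 and -60 bp from the start. The nearest centre within 300 bp downstream was found in 28, 34 and 34 of the 37 genes, at a median of 106, 115.5 and 99 bp. Over all genes that median was 108, 108 and 102 bp, so the place of this nucleosome was much the same. The share of centres listed just upstream of the start was smaller than over all genes, as given above.

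**Figure D1:**
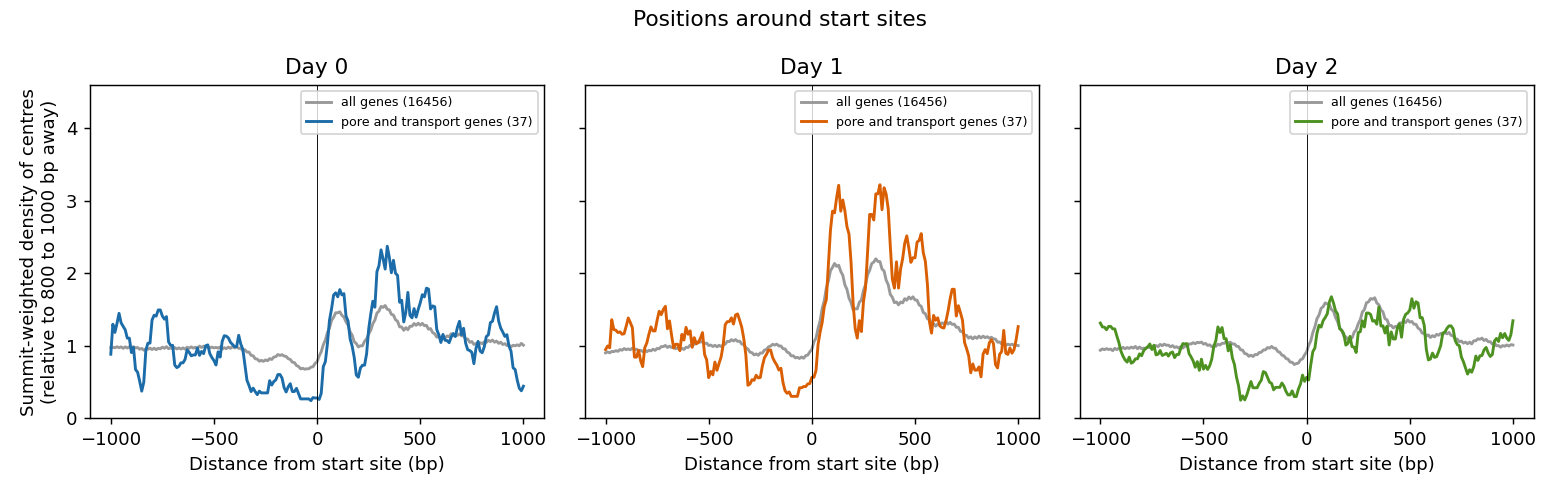
Density of position centres, weighted by summit value and divided by its mean at 800 to 1000 bp from the start, against the distance from the start site in bp, for the 37 genes (coloured) and all 16456 genes (grey), with 1 panel per day and 1 library per day. The coloured lines dip to 0.243, 0.302 and 0.299 upstream of the start, below the grey lines, and the first maximum downstream is highest on day 1 at 3.22.

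The promoters of the pore and transport genes were rich in CpG, the base pair step that marks CpG islands. In the RefSeq promoter window, from 250 bp before the start to 50 bp into the gene, the 37 genes had a median of 28 CpG and 64.3% GC, against 14 CpG and 56.7% over all genes. Kpna7 had the fewest with 4, and Ran the most with 58. To set like beside like, the upstream share was also taken over promoters with at least 16 CpG, a choice made after seeing the data. It was then 1.50%, 1.32% and 2.22% in 35 of the genes and 3.95%, 4.89% and 4.75% in all 7671 such genes. By number it rested on 4 of 243, 4 of 258 and 6 of 293 centres, with intervals of 0.450% to 4.16%, 0.424% to 3.92% and 0.755% to 4.40%. The share of all CpG-rich genes by number, 4.14%, 4.83% and 4.96%, lay just inside the interval on day 0 and above it on days 1 and 2. The first maximum was 1.82, 3.28 and 1.69 times in the 35 genes and 1.62, 2.56 and 1.76 times in all CpG-rich genes, so on day 2 it was the lower of the pair.

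A 10-base motif of NRF1, a factor that binds CpG-rich promoters of many housekeeping genes, was found in 5 of the 37 promoters (13.5%), searched on both strands with the 10 letters that stand in capitals in the Ran sequence below. Of all 16456 promoters of the same 300 bp length 1.37% held it, and of those with at least 16 CpG 2.54%, against 14.3% of the 35 genes. The 5 promoters are printed because they carry this match beside the nucleosome-poor stretch described above, and Kpna7 is printed as the promoter with the fewest CpG and the 1 match of GATA letters (AGATAA) shown here. All are RefSeq sequences of GRCm38.p6 in lower case, 5′ to 3′ along the gene, and the start site is base 251. Capitals mark the NRF1 match, and in Kpna7 the GATA match, which is on the other strand and so reads backwards as its complement.
Ran, chr5:129019906-129020205, plus strand: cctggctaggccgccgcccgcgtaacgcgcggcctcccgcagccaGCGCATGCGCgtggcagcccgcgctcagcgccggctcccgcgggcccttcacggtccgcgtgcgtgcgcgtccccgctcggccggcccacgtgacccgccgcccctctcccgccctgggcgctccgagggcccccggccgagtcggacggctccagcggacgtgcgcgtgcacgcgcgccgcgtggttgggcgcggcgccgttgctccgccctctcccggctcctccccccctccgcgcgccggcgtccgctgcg
Nup62, chr7:44815838-44816137, plus strand: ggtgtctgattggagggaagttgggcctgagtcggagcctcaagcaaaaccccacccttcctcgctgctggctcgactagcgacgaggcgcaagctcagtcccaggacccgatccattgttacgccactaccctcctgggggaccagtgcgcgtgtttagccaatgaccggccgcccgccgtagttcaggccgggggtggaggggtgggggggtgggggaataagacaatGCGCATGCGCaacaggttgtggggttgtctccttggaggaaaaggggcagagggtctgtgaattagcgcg
Nup107, chr10:117792656-117792955, minus strand: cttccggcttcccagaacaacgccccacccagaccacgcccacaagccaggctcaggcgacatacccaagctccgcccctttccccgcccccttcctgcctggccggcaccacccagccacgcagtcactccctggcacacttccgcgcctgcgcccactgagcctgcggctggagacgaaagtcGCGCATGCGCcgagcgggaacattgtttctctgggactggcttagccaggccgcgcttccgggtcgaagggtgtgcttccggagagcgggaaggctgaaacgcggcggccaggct
Nup50, chr15:84923178-84923477, plus strand: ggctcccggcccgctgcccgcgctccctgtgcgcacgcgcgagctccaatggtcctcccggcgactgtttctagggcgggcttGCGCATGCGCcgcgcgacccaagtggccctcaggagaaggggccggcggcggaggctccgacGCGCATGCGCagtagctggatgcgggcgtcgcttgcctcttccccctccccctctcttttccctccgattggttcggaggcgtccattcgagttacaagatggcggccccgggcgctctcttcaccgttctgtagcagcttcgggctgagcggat
Xpo5, chr17:46202561-46202860, plus strand: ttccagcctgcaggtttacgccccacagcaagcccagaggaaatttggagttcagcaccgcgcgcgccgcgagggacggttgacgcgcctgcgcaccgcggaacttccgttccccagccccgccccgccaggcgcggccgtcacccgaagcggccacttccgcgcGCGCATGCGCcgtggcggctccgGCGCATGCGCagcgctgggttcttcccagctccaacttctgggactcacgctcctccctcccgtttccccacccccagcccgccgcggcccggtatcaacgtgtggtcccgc
Kpna7, chr5:145009587-145009886, minus strand: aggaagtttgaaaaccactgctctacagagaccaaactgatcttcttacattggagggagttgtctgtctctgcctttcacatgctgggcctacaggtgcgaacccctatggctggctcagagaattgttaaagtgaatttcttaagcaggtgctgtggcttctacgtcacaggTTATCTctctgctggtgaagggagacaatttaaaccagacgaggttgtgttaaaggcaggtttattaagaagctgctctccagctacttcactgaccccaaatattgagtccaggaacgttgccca
A match of letters is a description of the sequence, not a bound site.

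In Ran the NRF1 letters ran from 205 to 196 bp upstream of the start, in Nup62 from 20 to 11 bp and in Nup107 from 65 to 56 bp. Nup50 and Xpo5 had a pair of matches each, at 167 to 158 and 105 to 96 bp upstream in Nup50, and at 85 to 76 and 62 to 53 bp upstream in Xpo5. In Nup107, Nup50 and Xpo5 no listed nucleosome of 140 bp covered any base of a match on any day. In Ran a nucleosome centred 185 bp upstream covered it on day 1, and none did on days 0 and 2. In Nup62 a nucleosome centred 58 bp downstream reached the last bases of the match on day 0, and none did on days 1 and 2. How this compares with other promoters that hold the letters was not tested.

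Other promoter letters were counted in the same way. The GC box (GGGCGG), bound by Sp1-type factors, was found in 26 of 37 promoters (70.3%, all genes 47.3%), and the CCAAT box (CCAAT), bound by NF-Y, in 20 (54.1%, all genes 39.1%). The ETS letters CCGGAAG were found in 6 (16.2%, all genes 12.3%). The TATA box (TATAAA) was found in Nup160 and Ipo7 only (5.41%, all genes 13.5%). The GATA letters AGATAA, part of the motif of the erythroid factor GATA1, were found in Kpna7 and Tnpo3 only (5.41%, all genes 9.85%). Among promoters with at least 16 CpG the GC box was found in 74.3% of the 35 genes and 78.4% of all such genes, and the ETS letters in 17.1% and 20.2%, so both shares were then below those of all genes. The CCAAT box was found in 54.3% and 36.5%. The GATA letters were then found in 2.86% and 3.17%, and the TATA box in 2.86% and 4.59%, which is 1 of the 35 genes in each case. The lower GATA and TATA shares beside all genes were thus smaller or nearly absent among CpG-rich promoters. Motifs were searched on both strands, and matches of different motifs may overlap.

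Single genes differed in this arrangement. Nup153, Nup160 and Nup205 had a centre within 150 bp upstream on every day, and these 3 genes gave 3 of the 5, 3 of the 5 and 3 of the 7 such centres on days 0, 1 and 2. The nearest centre upstream lay 52, 12 and 52 bp away in Nup153, 86, 104 and 74 bp in Nup160, and 80, 75 and 15 bp in Nup205. Other genes had a wide empty stretch. In Xpo5, the exportin of microRNA precursors, the first nucleosome downstream was centred 120 bp from the start on day 0, 90 bp on day 1 and 120 bp on day 2, and the nearest upstream lay 330, 320 and 445 bp away. In Kpnb1, importin beta 1, which carries most classical import cargo, the first centre was 26, 41 and 11 bp downstream and the nearest upstream 354, 519 and 754 bp away. In Xpo1, the exportin of proteins with a leucine-rich export signal, the first centre was 122, 80 and 20 bp downstream, and no centre was listed within 600 bp upstream on any day. Kpnb1 thus had a nucleosome close to the start on every day, and Xpo1 on day 2 alone.

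Ran had its first centre 75, 95 and 150 bp downstream, with the nearest upstream at 583, 185 and 403 bp. In Nup62, an FG-repeat protein of the central channel, no centre was listed between 747 bp upstream and 298 bp downstream on day 1, where days 0 and 2 had first centres 58 and 175 bp downstream. On that day a nucleosome 413 bp downstream had a summit value of 20.87, the highest of all positions over the 46 genes on day 1. Ndc1, a transmembrane protein that anchors the pore, had no centre between 626 bp upstream and 529 bp downstream on day 0. Its first centre on both later days was 74 bp downstream. Tpr, the filament protein of the nuclear basket, had no centre between 502 bp upstream and 773 bp downstream on day 0, between 382 and 583 bp on day 1, and between 155 and 523 bp on day 2. A place without a listed position may hold a nucleosome that was not called, and the read depth there was not known.

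**Figure D2:**
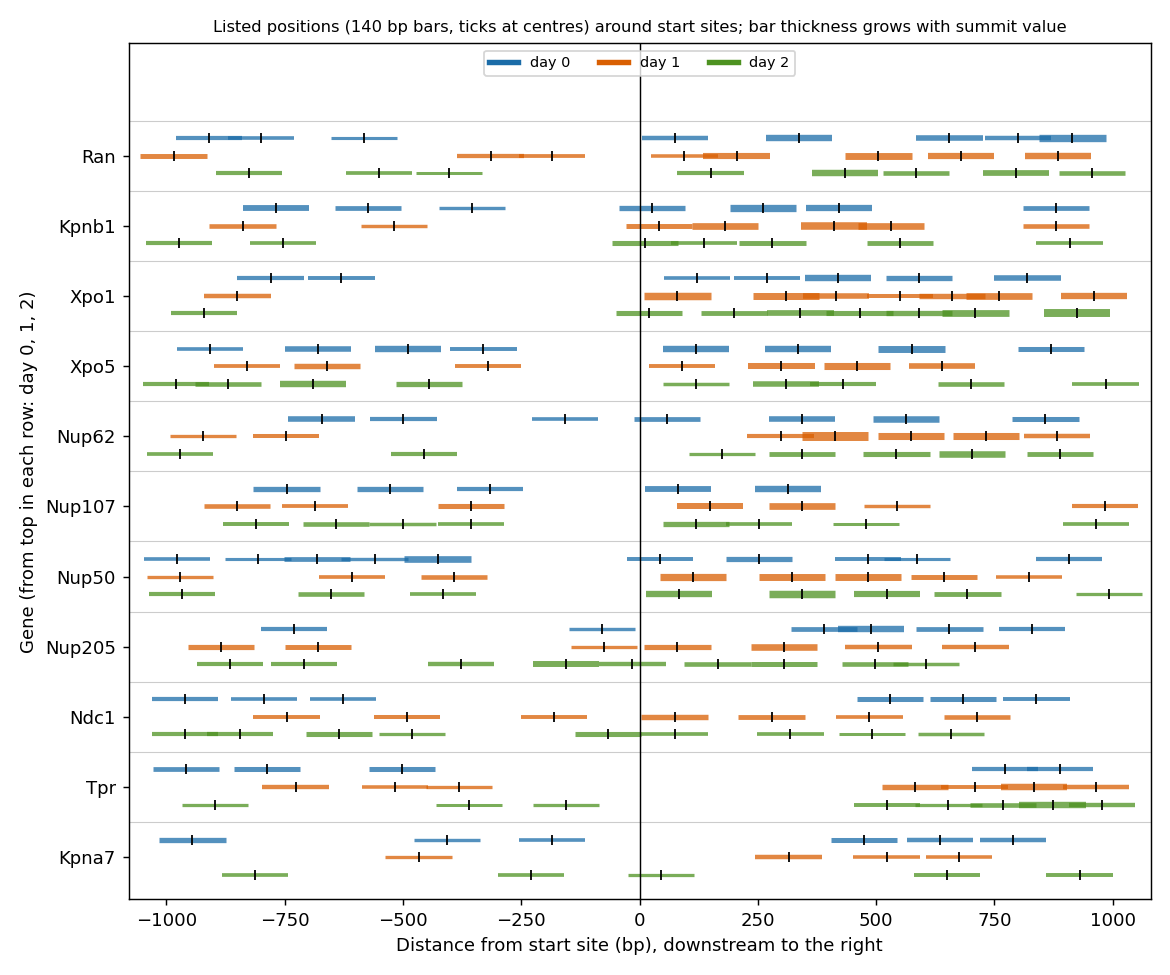
Listed nucleosomes within 1000 bp of the start sites of 11 genes, as bars of 140 bp whose thickness grows with the summit value, with ticks at the centres and colours for days 0, 1 and 2 (1 library each). The horizontal axis is the distance from the start site in bp, and the 300 bp upstream of the start hold no centre in Xpo1, Xpo5 and Nup107 on any day and in Tpr on days 0 and 1.

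In the 300 bp promoter window itself, 21 of 37 genes had no listed centre on day 0 (56.8%), 18 on day 1 (48.6%) and 15 on day 2 (40.5%). Over all genes this was 47.7%, 47.7% and 37.0%, and over CpG-rich promoters 44.8%, 38.8% and 30.8%, against 60.0%, 48.6% and 42.9% of the 35 CpG-rich genes. Nup107, Nup214, Kpna2, Tnpo2 and Xpo5 had none on any of the 3 days, which is 13.5% of the 37 genes against 21.6% of all genes. All genes include 5190 promoters with 0 to 5 CpG, of which 56.6%, 64.7% and 49.9% were empty on days 0, 1 and 2. The share of CpG-rich promoters empty on all 3 days is not given, so this comparison is not matched for CpG. A centre was listed on every day in 10 of the 37 genes (27.0%, all genes 32.9%).

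The signal was unequal between the ends of a gene. Relative occupancy is the sum of summit values per bp in a window as a multiple of its mean over chromosomes 1 to 19 on that day, so 1 is the autosome mean. Within 500 bp of the start site its median over the 37 genes was 2.87, 4.68 and 2.72 on days 0, 1 and 2, and at the far end it was 2.15, 2.50 and 1.78. All genes had medians of 2.14, 3.30 and 2.26 at the start and 1.76, 1.63 and 1.58 at the far end. All CpG-rich genes had 2.61, 4.74 and 2.85 at the start, close to the 2.87, 4.68 and 2.78 of the 35 CpG-rich pore and transport genes. At the far end all CpG-rich genes had 2.28, 2.429 and 1.942, slightly above the 2.215, 2.321 and 1.837 of the 35.

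With both ends counted, 34, 34 and 33 of the 46 genes lay above the median of all genes on days 0, 1 and 2. These counts are not set against CpG-rich genes. The median relative occupancy at the gene ends was 2.45, 3.49 and 2.26, against 1.95, 2.61 and 1.92 over all genes. Tnpo2, an import receptor of RNA-binding proteins, and Ipo4, an import receptor of histones and ribosomal proteins, were highest on day 0 at 4.41 and 4.38. Tpr and Nup155, a scaffold protein of the inner ring, were lowest at 0.684 and 0.782. Tpr stayed lowest on day 2 at 0.394 with 2 positions on each day, and Nup155 had no listed position at its ends on day 1 and 4 on day 2. Values at these ends rest on a median of 7, 6 and 7 positions per gene.

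**Figure D3:**
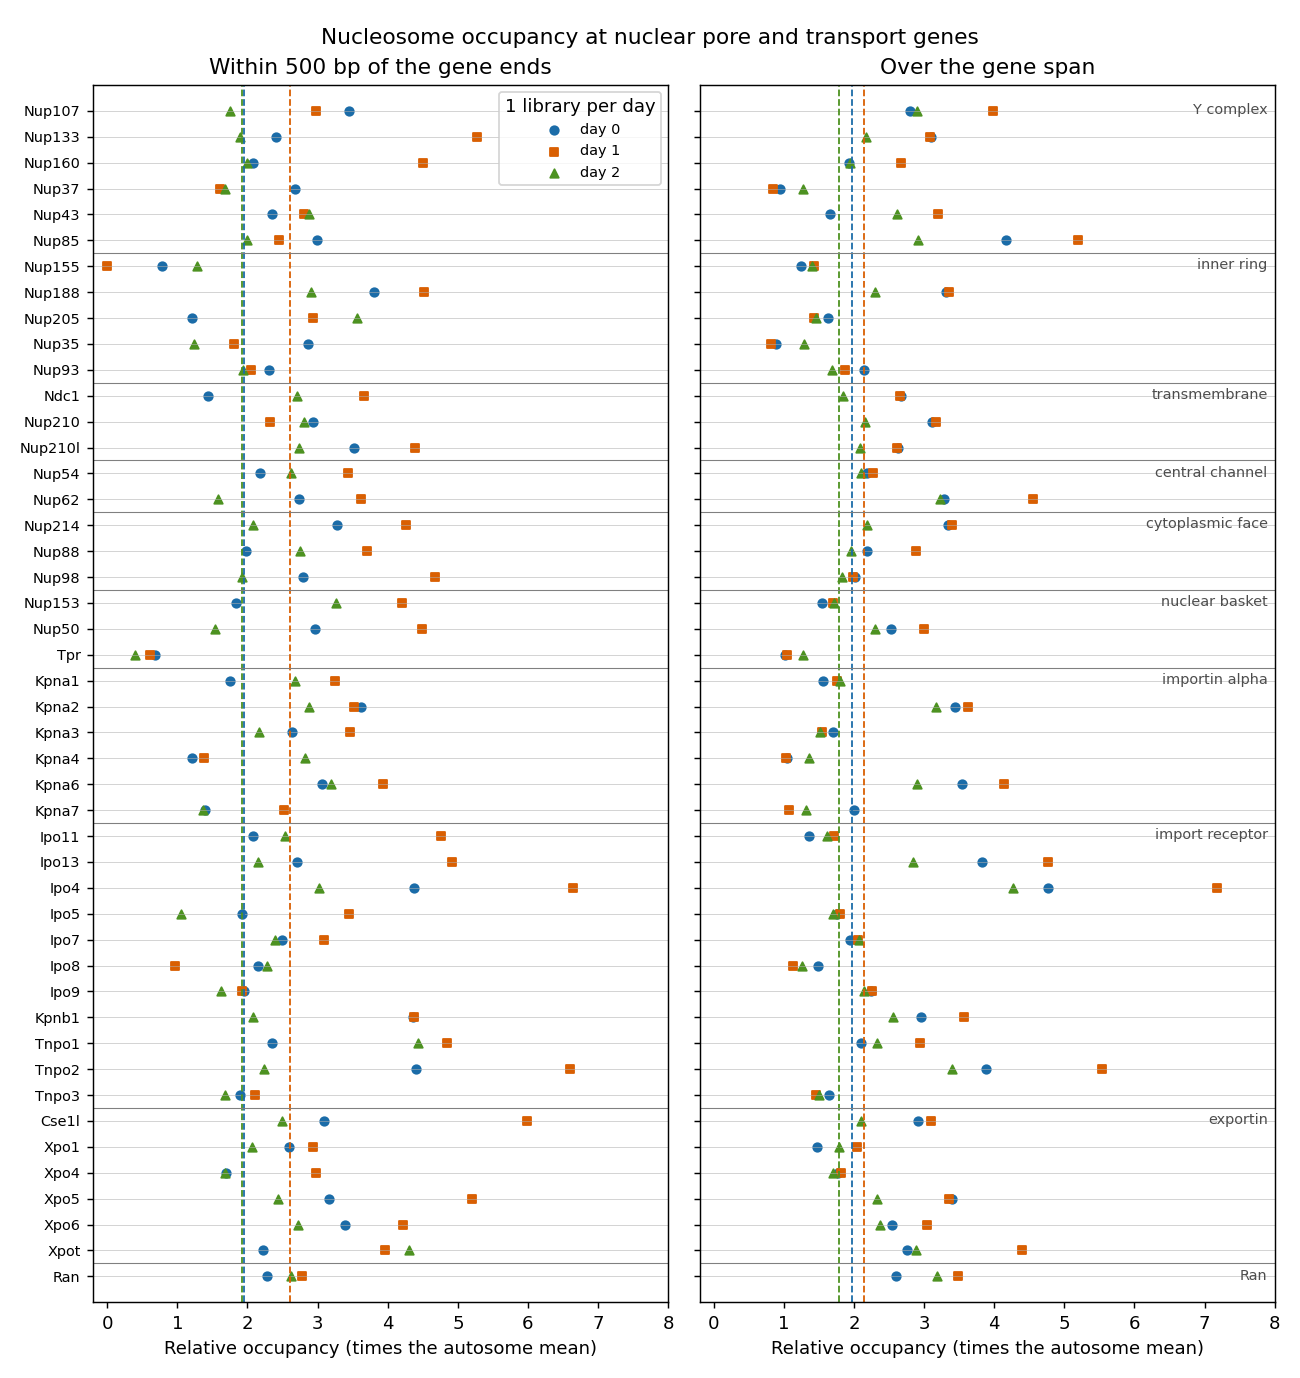
Relative occupancy of each of the 46 genes (points, 1 library per day, no error bars) within 500 bp of the gene ends (left) and over the gene span (right), in multiples of the autosome mean, with genes grouped by role. Dashed lines are the medians of all genes on each day, and at the ends the day 1 points lie to the right of the other days in 31 of the 43 genes with enough positions.

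Day 1 was the highest of the 3 days at the ends of most of these genes, as it was over all genes. This holds for sums of summit values. With each position counted once, the median end level of the 46 genes was 2.33, 2.49 and 1.96, so day 1 stood out much less from day 0. Changes were taken for the 43 genes that had 3 positions or more at their ends on every day, which leaves out Nup155 with 2, 0 and 4 positions on days 0, 1 and 2, Tpr with 2 on each day, and Kpna4 with 4, 2 and 7. Of these, 31 were highest on day 1 (72.1%, all genes 70.4%), 8 on day 0 and 4 on day 2, and 28 were lowest on day 2 (65.1%, all genes 52.5%). Their log2 change had a median of 0.40 from day 0 to 1 (all genes 0.45), -0.56 from day 1 to 2 (all genes -0.56) and -0.29 from day 0 to 2 (all genes -0.12). The 3 steps share libraries and are not independent.

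A change of 2 times or more was used as a size rule and not as a test. From day 0 to 1, 7 genes were higher by this rule, namely Nup133, Nup160, Nup205, Ndc1, Nup153, Ipo11 and Tnpo1, which is 16.3% of 43 beside 16.2% of 13992 genes. Ipo8 alone was lower (2.33% beside 1.31%). From day 1 to 2, 13 genes were lower (30.2% beside 19.7%), and Ipo8 alone was higher (2.33% beside 0.593%). From day 0 to 2, Nup205 alone was higher (2.33% beside 4.24%), and Nup35 and Kpnb1 were lower (4.65% beside 6.53%). The counts from day 0 to 1 and from day 0 to 2 were near the background. The total of 14 from day 1 to 2 was 7 with windows of 1000 bp and 5 with scaling to the median window. The share of all genes under these settings is not given, so whether the excess over all genes remained cannot be said. Of the 46 genes, 14 have end windows that also hold an end of another gene, such as Tpr with Odr4 and Prg4 and Nup62 with Atf5 and Il4i1b, and signal there cannot be assigned to either gene.

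Among the pore genes, the Y complex of the outer ring, which coats the membrane at both faces of the pore, had median end values of 2.54, 2.89 and 1.94 over 6 genes. Nup107, a core subunit, had 8, 5 and 6 positions at its ends on days 0, 1 and 2, with relative occupancies of 3.45, 2.97 and 1.76. It was highest on day 0 and lowest on day 2, a log2 change of -0.97 over both steps. Nup133 and Nup160, of the same complex, peaked on day 1 at 5.27 and 4.50, from 2.41 and 2.08 on day 0 and 1.89 and 1.99 on day 2. The order of days thus differed between these 3 genes of 1 complex, on 5 to 11 positions each.

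In the inner ring, which spans the middle of the pore, Nup205 and Nup35 moved in opposite directions. Nup205, a large scaffold protein, had 3, 6 and 11 positions with relative occupancies of 1.21, 2.94 and 3.56, highest on day 2 (log2 change 1.56 from day 0). Nup35, a membrane-binding protein of the ring, had 8, 5 and 4 positions with 2.87, 1.81 and 1.23, lowest on day 2 (log2 change -1.22). The ratio of position numbers from day 0 to 2, divided by that of the whole lists, was 3.09 for Nup205 with an exact conditional 95% interval of 0.816 to 17.2, and 0.421 for Nup35 with 0.0928 to 1.57. Both intervals include 1, so neither change in number exceeded counting error at this depth.

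Of the transmembrane proteins, Ndc1 had 4, 8 and 9 positions with 1.43, 3.66 and 2.70, low on day 0 alone (log2 change 0.92 from day 0 to 2). Nup210, a glycoprotein of the pore membrane, had 8, 4 and 8 positions with 2.93, 2.32 and 2.81, and ended within a log2 change of -0.06 of day 0. Its end windows do not hold its RefSeq start site. Within 500 bp of that site the values were 3.986, 3.575 and 4.094. In the central channel, Nup62 had 8, 6 and 6 positions with 2.74, 3.62 and 1.57, lowest on day 2 (log2 change -0.80). Nup98, an FG-repeat protein with a role in mRNA export, had 5, 9 and 6 positions with 2.79, 4.67 and 1.92 (log2 change -0.54). Nup62 and Nup98 thus had the common order, with day 1 highest and day 2 lowest.

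The nuclear basket, which extends into the nucleus, was mixed. Nup153, which ties the basket to the pore, had 4, 6 and 9 positions with 1.83, 4.21 and 3.26 (log2 change 0.83 from day 0 to 2). Nup50, which helps to release import cargo, had 8, 8 and 3 positions with 2.96, 4.48 and 1.53 (log2 change -0.95). Tpr was low on all days at 0.684, 0.616 and 0.394.

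Among the transport factors, the importin alpha adaptors, which read the classical nuclear localization signal, had median end values of 2.20, 3.35 and 2.75 over 6 genes. Kpna2 had 8, 6 and 7 positions with 3.62, 3.52 and 2.87, highest on day 0 (log2 change -0.33 from day 0 to 2). Kpnb1, the receptor that works with them, had 10, 8 and 6 positions with 4.36, 4.37 and 2.08, and only the last day was low (log2 change -1.06). The interval of its scaled number ratio from day 0 to 2 was 0.151 to 1.53 around 0.505, and included 1.

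The other import receptors held the largest values of the set. Tnpo2 had 9, 10 and 7 positions with 4.41, 6.59 and 2.23, high on day 1 and lowest on day 2 (log2 change -0.98 from day 0 to 2). Tnpo1, its paralog, had 6, 5 and 11 positions with 2.35, 4.85 and 4.43 and stayed high on day 2 (log2 change 0.91). Ipo8, an importin of the beta family, had 7, 3 and 6 positions with 2.15, 0.961 and 2.28. It was the only gene of the 43 that was lowest on day 1 by more than 2 times in both steps. Its end windows do not hold its RefSeq start site. Within 500 bp of that site there were 0, 2 and 3 positions with 0.0, 2.32 and 1.78, so day 1 was the highest there.

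The 6 exportins were higher at their ends on day 1 than on day 0, with a median log2 change of 0.77, as were 34 of the 43 genes (79.1%) and 77.8% of all genes. Xpot, the tRNA exportin, had 7, 9 and 11 positions with 2.21, 3.96 and 4.30, highest on day 2 (log2 change 0.96 from day 0). Cse1l, which returns importin alpha to the cytoplasm, had 8, 11 and 7 positions with 3.09, 5.99 and 2.49, highest on day 1 (log2 change -0.31 from day 0 to 2). Xpo1 had 8, 5 and 6 positions with 2.60, 2.94 and 2.07 (log2 change -0.33). Ran had 6, 6 and 8 positions with 2.28, 2.77 and 2.63, which varied little with both ends counted (log2 change 0.20). Its ends moved in opposite directions in each step. Within 500 bp of its start site the values were 1.89, 3.70 and 2.16, and at the far end 2.67, 1.85 and 3.10.

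Over the gene spans the values were steadier, and no gene of the 46 changed by 2 times or more in any step. Of all 17894 genes with enough positions, 3.45% were higher and 5.68% lower by this size from day 0 to 1, 7.57% and 4.05% from day 1 to 2, and 5.38% and 2.37% from day 0 to 2. The pore and transport genes were longer, with a median of 48070 bp against 17580 bp, and their spans held a median of 134, 115 and 145.5 positions against 48, 43 and 53, so their sums rest on more positions. Their median relative occupancy was 2.19, 2.67 and 2.09, beside 1.97, 2.14 and 1.78 over all genes. Over days 0 to 1, 1 to 2 and 0 to 2 the median log2 changes were 0.08, -0.25 and -0.13, beside 0.20, -0.33 and -0.15. Set against genes of 0.5 to 2 times the length of each, the median differences from other genes were 0.02, -0.07 and 0.04 on the log2 scale, and against all genes they were -0.12, 0.09 and 0.03.

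Position numbers over the spans allow a counting interval for each gene, which covers counting error only. From day 0 to 1, the interval of the scaled number ratio excluded 1 upwards in 10 genes (21.7%, all genes 15.0%), and in Kpna7 downwards (2.17%, all genes 10.3%). The 10 were Nup43, Nup88, Nup107, Nup160, Ipo11, Tnpo1, Tnpo2, Xpo1, Xpo6 and Xpot. From day 1 to 2 it lay above 1 in none (all genes 10.7%) and below 1 in 21 (45.7%, all genes 32.4%). From day 0 to 2 it lay above 1 in none (all genes 8.66%) and below 1 in 11 (23.9%, all genes 16.0%), namely Nup93, Nup133, Nup188, Nup210, Nup210l, Nup214, Ndc1, Kpna7, Ipo13, Cse1l and Xpo5. All 3 transmembrane proteins were among the 11. Longer genes have narrower intervals, so these shares are not like for like with those of all genes.

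The largest span decreases from day 0 to 2 were in Nup214, Kpna7 and Xpo5. Nup214, an FG-repeat protein of the cytoplasmic face, had 348, 304 and 293 positions and relative occupancies of 3.34, 3.39 and 2.19, low on day 2 alone (log2 change -0.61). Its scaled number ratio was 0.709 with an interval of 0.605 to 0.831. Xpo5 had 174, 148 and 157 positions with 3.40, 3.36 and 2.33 (log2 change -0.55), and a ratio of 0.760 with 0.608 to 0.948. Nup210 had the same shape at 3.11, 3.17 and 2.15, with 445, 393 and 371 positions and a ratio of 0.702 with 0.610 to 0.807.

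Kpna7, an importin alpha known from oocytes and early embryos, was the only gene of the 46 whose interval excluded 1 downwards from day 0 to 1. It had 83, 38 and 64 positions and span values of 2.00, 1.07 and 1.32, lowest on day 1 (log2 changes of -0.90 from day 0 to 1 and -0.60 from day 0 to 2). Its scaled number ratio from day 0 to 1 was 0.569 with an interval of 0.377 to 0.845. The longest stretch without a centre in any of the 46 spans was in this gene on day 1, at 6480 bp, against 2560 bp on day 0 and 2747 bp on day 2. With both ends counted Kpna7 was highest on day 1 at 2.52, from 1.40 on day 0 and 1.37 on day 2. Only the far end had this order, with 0.977, 3.52 and 1.78 on days 0, 1 and 2. Within 500 bp of the start site the values fell, from 1.82 to 1.52 and 0.945.

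The largest span increases from day 0 to 2 were in Nup43, Nup35 and Nup37, which are shorter than the median gene of the set. Nup43, of the Y complex, had 31, 41 and 44 positions with 1.66, 3.20 and 2.61, highest on day 1 (log2 change 0.66). Nup35 had 32, 25 and 52 positions with 0.892, 0.819 and 1.28 (log2 change 0.53), the opposite of its gene ends. Nup37, also of the Y complex, had 51, 37 and 75 positions with 0.942, 0.846 and 1.27 (log2 change 0.43). The interval of the scaled number ratio from day 0 to 2 included 1 in all 3 genes. The highest span values of the set were those of Ipo4, at 4.76, 7.17 and 4.27.

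The change over the span from day 1 to 2 and from day 0 to 2 went with the gene number around each gene. Across the 46 genes, Spearman's rho between the log2 change from day 0 to 2 and the number of protein-coding genes in the surrounding 1 Mb was -0.541, and across all 17894 genes with enough positions it was -0.397. From day 1 to 2 it was -0.484 and -0.541, and from day 0 to 1 it was 0.065 and 0.228. These describe genes of the same libraries, which are not independent replicates, and base composition, which also varies with gene number, was not examined. Nup35, with 6 genes around it, and Nup214, with 23, lie towards opposite sides of the relation with gene number. Both were picked for their large changes, and Nup62, with 57 genes around it, changed by a log2 of only -0.02 from day 0 to 2.

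**Figure D4:**
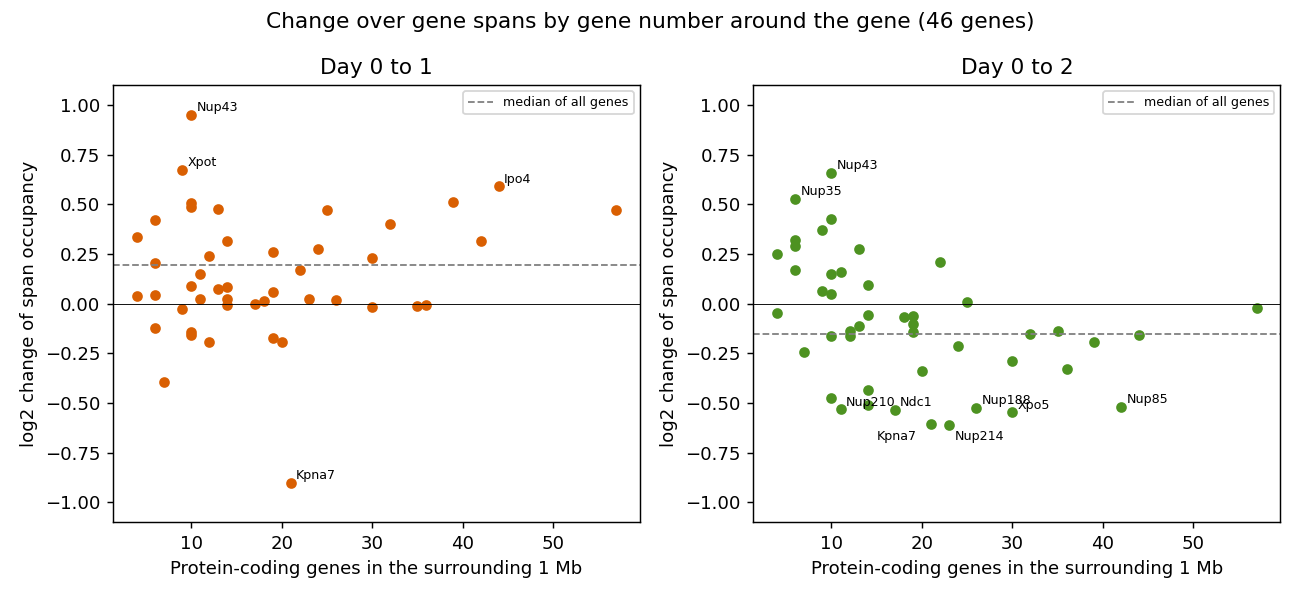
Log2 change of span occupancy for the 46 genes against the number of protein-coding genes in the surrounding 1 Mb, from day 0 to 1 (left) and from day 0 to 2 (right), with dashed lines at the medians of all genes (0.20 and -0.15). The right panel slopes downwards (rho -0.541), the left does not (rho 0.065), and Kpna7 is the lowest point on the left at -0.90.

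Single nucleosomes kept their place between days 1.30 to 1.34 times as often as after a shift of the list. A position of day 0 was counted as kept when a centre of the other day lay within 20 bp. Of the 7336 positions over the 46 genes on day 0, 18.1% were kept on day 1 (exact Clopper-Pearson 95% interval 17.2% to 19.0%) and 19.3% on day 2 (18.4% to 20.2%). Of the day 1 positions 20.5% were kept on day 2 (19.5% to 21.5%). After a shift of 1000 bp the shares were 13.9%, 14.7% and 15.3%, so the kept shares were 1.30, 1.31 and 1.34 times those. Over all genes the kept shares were 15.2%, 17.0% and 19.3%, and 1.29, 1.28 and 1.32 times those after a shift. The larger raw shares thus stood beside larger shifted shares.

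On all 3 days 329 of the 7336 day 0 positions kept their place (4.49%, all genes 3.54%), against 2.55% and 2.84% after shifts in either direction. Xpot had the highest share, 18 of 151 positions (11.9%). Nup35, Ran and Kpna7 had none, with 32, 14 and 83 positions on day 0. With so few positions a share of 0 in Ran says little.

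The positions over these genes were close in strength to those over all genes, and slightly less sharp on every day. Their median summit value was 7.62, 7.12 and 6.26, against 7.62, 6.80 and 6.26 over all genes, and their median fuzziness score, a measure of how far reads spread around a centre, was 52.1, 55.0 and 52.3 against 51.5, 54.8 and 51.6. The distance to the next centre had a median of 225, 215 and 225 bp, against 240, 220 and 245 bp. The strongest positions on day 0 shared a summit value of 21.34 in Cse1l, Kpna6 and Ndc1, all more than 9 kb inside the gene. The strongest on day 2, at 19.39, lay 2646 bp downstream of the start of Nup160, where the nearest centres of days 0 and 1 were 60 and 10 bp away with 15.25 and 6.47.

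The other genes of the pathway, taken as a list of 22 with the Ran cycle, mRNA export and further pore proteins, had the same order of days in their medians. Their median end values were 3.12, 3.79 and 2.55, and the median log2 changes over the 20 with enough positions were 0.38, -0.46 and -0.09. From day 0 to 1, 2 of the 20 were higher by 2 times or more (all genes 16.2%) and none was lower (all genes 1.31%). From day 1 to 2 none was higher (all genes 0.593%) and 5 of the 20 were lower (all genes 19.7%). From day 0 to 2 Ahctf1, the chromatin-binding protein that seeds pore assembly, was lower (log2 change -1.91, from 11 positions to 3). This was 5.0% of the 20 beside 6.53% of all genes, and none was higher (all genes 4.24%). Xpo7, a transport receptor studied in red cell precursors and outside the symbol rule, had 6, 5 and 7 positions at its ends with 1.95, 2.01 and 2.47 (log2 change 0.34 from day 0 to 2). Its span values were 1.55, 1.57 and 1.75, so it varied little on either measure.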

How the data were processed

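Nucleosome DNA was sequenced from 1 library per day. Bowtie2, bedtools and the build mm10 are named in the submitters' processing notes, without versions. For the position caller and its settings, nothing is given in the sources used here. Positions were called separately for each library. Per the file headers, each deposited position has a summit value, which is a coverage signal that the authors smoothed and scaled. The deposited fuzziness score has no stated unit, and the deposited p-value columns were not used.

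Gene coordinates came from a RefSeq table of GRCm38.p6, without 105 genes below 3 Mb. Changes needed at least 3 positions on each day. Start sites were those of the RefSeq promoter entry nearest to the gene's 5′ end. Profiles used steps of 10 bp, smoothed over 5 steps on each side. Genes of the report are all those of the symbol rule. Values in every library were given for the 4 largest changes in each direction at the ends from day 0 to 2, for 3 over spans, for the 2 highest and 2 lowest on day 0 and for a fixed list, and other genes were added after their values were seen. The members and the lists were chosen with earlier results of these data known. The fixed list was Tpr, Nup98, Nup153, Nup62, Nup107, Nup210, Ndc1, Kpna2, Kpnb1, Xpo1, Cse1l and Ran. Computations were tested on simulated data and run with numpy 2.4.6, scipy 1.17.1 and pandas 2.3.3 under Python 3.11.15. Figures used matplotlib 3.10.9. Alternatives are given in the closing section.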

Additional observations from a re-analysis of the deposited data

How the results depend on the processing

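Of 96 alternative values, 65 stayed within 1.5 times a count or within the interval of a value, and 31 moved. Some median changes relative to all genes took the other sign within intervals that include 0, so their direction was not settled. Against genes of similar length the span change was 0.02 from day 0 to 1 and -0.07 from day 1 to 2, instead of -0.12 and 0.09. With windows of 1000 bp the end change from day 0 to 1 was 0.04 instead of -0.04. Genes changed by 2 times or more at their ends numbered 8, 14 and 3 over days 0 to 1, 1 to 2 and 0 to 2. With windows of 1000 bp they were 3, 7 and 1, and with summit values of 10 or more, where 4 genes had enough positions, 1, 0 and 0. With each position counted once they were 3 and 8 in the single steps, and with scaling to the median window 3 and 5. With at least 5 positions on each day they were 4 from day 0 to 1 and 1 from day 0 to 2, and without genes whose windows overlap 8 from day 1 to 2. Shares of all genes under these settings are not given, so the counts stand without their background. The end level counted by position was 2.49 on day 1 and 1.96 on day 2. Kept shares for days 0 to 1, 1 to 2 and 0 to 2 were 10.5%, 11.6% and 11.0% within 10 bp, and 25.1%, 28.8% and 27.4% within 30 bp. Among summit values of 10 or more they were 7.18%, 5.98% and 5.03%, the span change from day 0 to 1 relative to all genes was -0.34, the median summit values were 12.2, 11.3 and 11.3, and fuzziness was 51.1, 54.8 and 51.0. The cause of these moves was not tested. A window from 200 bp outside to 50 bp inside the ends left no gene with 3 positions on each day and gave no change. No paired analysis was possible because each day has 1 library. Unknown read depth, separate calling and about 7 positions per gene end limit every value at single genes.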
